A study of Mus musculus with 10 samples.

Results

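The 10 genes described here mark the resident macrophages of the heart and their activation, and were chosen by symbol from the 24537 genes of the count table: Csf1r, Adgre1, Cd68, Mrc1, Cd163, Lyve1, C1qa, C1qb, C1qc and Ccr2. All 10 were found and all 10 passed the filter on low counts. Their levels were read in RNA sequencing libraries of 10 heart samples taken at the age of 6 weeks, from 5 control mice (Rosa26-rtTA2+/-;TRE-SOD2-shRNA-/-) and from 5 iSOD2 mice (Rosa26-rtTA2+/-;TRE-SOD2-shRNA+/-). Every mouse carried the doxycycline-dependent transactivator rtTA2 under the broadly active Rosa26 promoter, and what set the iSOD2 mice apart was TRE-SOD2-shRNA, a transgene in Col1a1 from which doxycycline-bound rtTA2 drives a hairpin that knocks down Sod2. Sires homozygous for rtTA2 and heterozygous for the hairpin were mated to wild-type C57BL/6J dams, and the dams, which carried pups of both genotypes together, ate doxycycline chow from the vaginal plug to birth and normal chow afterwards, so that the hairpin was driven in utero only and not in the heart or in macrophages alone. Each genotype had 2 mice of litter A and 3 of litter B, with 3 males and 2 females among the controls and 2 males and 3 females among the iSOD2 mice. Each mouse goes by its genotype and the number on its label.

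Resident macrophages settle in the heart before and shortly after birth and keep their number largely by dividing in place, under signals that reach them through the receptor encoded by Csf1r. They engulf dying cells and debris, hold the myocardium under surveillance and make most of the tissue's C1q, the recognition molecule of the classical complement pathway. Monocytes from the blood, marked by the chemokine receptor Ccr2, add to the population, more so after injury. In RNA of whole tissue, fewer macrophages and less of a transcript per macrophage cannot be told apart.

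Counts over genes summed to 16448091 to 24263086 per library, without a difference between genotypes beyond the spread (two-sided exact permutation p 0.119). Sod2 itself, the target of the hairpin, did not pass the test at 6 weeks (log2 fold change 0.03, SE 0.05, DESeq2 adjusted p 0.806). Markers of the ventricular cardiomyocyte were high in every library, and the markers of resident macrophages typed for this comparison were detected in every library, 21 of 21 past the filter. Hepatocyte transcripts, which a heart should lack, were also present: Alb had 47.9 normalized counts in control 1 and 14601 in iSOD2 10, and the 10 hepatocyte markers summed to 239 to 10683 normalized counts in the control hearts and 5335 to 21634 in the iSOD2 hearts. A hepatocyte score over those markers differed between genotypes (exact permutation p 0.0238), so values with this score as a covariate are given beside the results it touches. The score was −2.56 in control 1 and lay between −0.47 (control 2) and 0.97 (iSOD2 10) in every other mouse. As a covariate it thus rested largely on control 1. A call lost with it cannot tell liver RNA apart from genotype or from control 1 alone. Clec4f, which defines the macrophages of the liver, was at 0 in control 1 and at most 20.3 normalized counts elsewhere.

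Per kilobase of exon, a scale on which genes of different length can be set side by side, the 3 C1q chains stood first and Ccr2 last. C1qa had 896 ± 103 normalized counts per kilobase (SD, n = 10), C1qc 713 ± 76.1 and C1qb 693 ± 101. The growth factor receptor Csf1r followed at 458 ± 74.1, and the mannose receptor Mrc1 at 299.5 ± 45.2. Lyve1, Adgre1 and Cd68 lay together at 150.2 ± 36.5, 146 ± 21.5 and 144 ± 16.0, above Cd163 at 112 ± 15.7. Ccr2, at 17.0 ± 4.42, was 6.55 times below Cd163, its neighbour in the order. The order held in 10 of 10 mice at every step but 3: C1qc exceeded C1qb in 7 of 10 mice, Lyve1 exceeded Adgre1 in 5 of 10 and Adgre1 exceeded Cd68 in 5 of 10, so these neighbours did not differ beyond their spread. Between mice, normalized counts varied least for C1qc, Cd68 and C1qa, with coefficients of variation of 10.7%, 11.1% and 11.5%, and most for Ccr2 and Lyve1, with 26.0% and 24.3%.

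iSOD2 and control hearts were compared to ask whether these transcripts still differed weeks after the knockdown had ended. No member passed the call rule, although the fitted level of 9 of the 10 was lower in iSOD2 hearts. The lower values were those of Adgre1, Csf1r, Mrc1, Cd68 and Ccr2, with log2 fold changes from −0.26 to −0.20, while the 3 C1q chains, Cd163 and Lyve1 lay between −0.04 and 0.04. A gene was called when its DESeq2 Wald test gave a p, adjusted by Benjamini-Hochberg over all genes, of 0.05 or less and its absolute log2 fold change exceeded 0.25. Of 9479 genes with an adjusted p, 2.96% were called, against 0 of the 9 members with one. Of all genes fitted, 50.5% had a fitted log2 fold change below 0. An unadjusted p under 0.05 was reached by 3 of the 10, all lower in iSOD2 hearts, where 13.2% of all genes reached it in either direction and 5.93% with lower levels. The median log2 fold change came to −0.12 over the members and −0.00 over all genes tested. With edgeR quasi-likelihood no gene of the whole table passed (lowest adjusted p 0.0664).

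Csf1r encodes the receptor for the macrophage growth factors CSF1 and IL-34 (NM_001037859, mm10 chromosome 18, 61105572 to 61131139, plus strand). Its normalized counts were 1980, 2001, 2209, 1662 and 1735 in controls 1, 2, 3, 4 and 6, and 1341, 1585, 1369, 1996 and 1742 in iSOD2 mice 5, 7, 8, 9 and 10. The lowest 3 values were iSOD2 mice, but iSOD2 9 and iSOD2 10 lay among the controls and the genotypes overlapped. The means were 1918 ± 221 and 1606 ± 273 (SD, n = 5 each), a difference that the exact permutation test did not separate from the spread between mice (p 0.0952). The DESeq2 log2 fold change came to −0.26 (SE 0.11, 95% interval −0.47 to −0.04, unadjusted p 0.0230, adjusted p 0.161).

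Adgre1, the gene of the macrophage surface protein F4/80 (NM_010130, chromosome 17, 57358686 to 57483529, plus strand), had 456, 580, 561, 484 and 488 normalized counts in the controls and 358, 384, 427, 489 and 485 in the iSOD2 mice, in the same order of mice. Levels of 484 to 489 were shared by controls 4 and 6 and iSOD2 9 and 10, and iSOD2 5, 7 and 8 lay below every control. The log2 fold change came to −0.26 (SE 0.11, 95% interval −0.47 to −0.05, unadjusted p 0.0142, DESeq2 adjusted p 0.123), the lowest p of the 10 genes. Cd68, which encodes a glycoprotein of macrophage lysosomes (NM_001291058, chromosome 11, 69664213 to 69666170, minus strand), had 174, 186, 213, 189 and 191 in the controls and 152, 159, 158, 165 and 195 in the iSOD2 mice. All but iSOD2 10 lay below every control, and the means of 191 ± 14.3 and 166 ± 17.1 (SD, n = 5 each) gave an exact permutation p of 0.0476. In the fit over all genes the log2 fold change of Cd68 was −0.20 (SE 0.11, DESeq2 adjusted p 0.284).

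Of the endocytic receptors, none of which was called, Mrc1 had the largest fitted difference. Mrc1, the mannose receptor CD206 (NM_008625, chromosome 2, 14229414 to 14332023, plus strand), had 1643, 1751, 1974, 1618 and 1546 normalized counts in the controls and 1266, 1299, 1344, 1871 and 1520 in the iSOD2 mice. iSOD2 9 again lay high, above 4 of the 5 controls, and the other 4 iSOD2 mice lay below every control. The log2 fold change came to −0.22 (SE 0.11, unadjusted p 0.0356, DESeq2 adjusted p 0.204). Cd163, the receptor that takes up haptoglobin-bound haemoglobin (NM_001170395, chromosome 6, 124304651 to 124330527, plus strand), had 500.3 ± 54.7 normalized counts in the control hearts and 498 ± 89.8 in the iSOD2 hearts (SD, n = 5 each, exact permutation p 0.976). Lyve1, a hyaluronan receptor of a resident macrophage subset that lymphatic endothelium also carries (NM_053247, chromosome 7, 110850607 to 110862953, minus strand), had 394 ± 104 and 386 ± 97.3 (SD, n = 5 each, exact permutation p 0.913). The 95% intervals of their log2 fold changes were −0.25 to 0.24 for Cd163 and −0.40 to 0.34 for Lyve1.

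**Figure D1:**
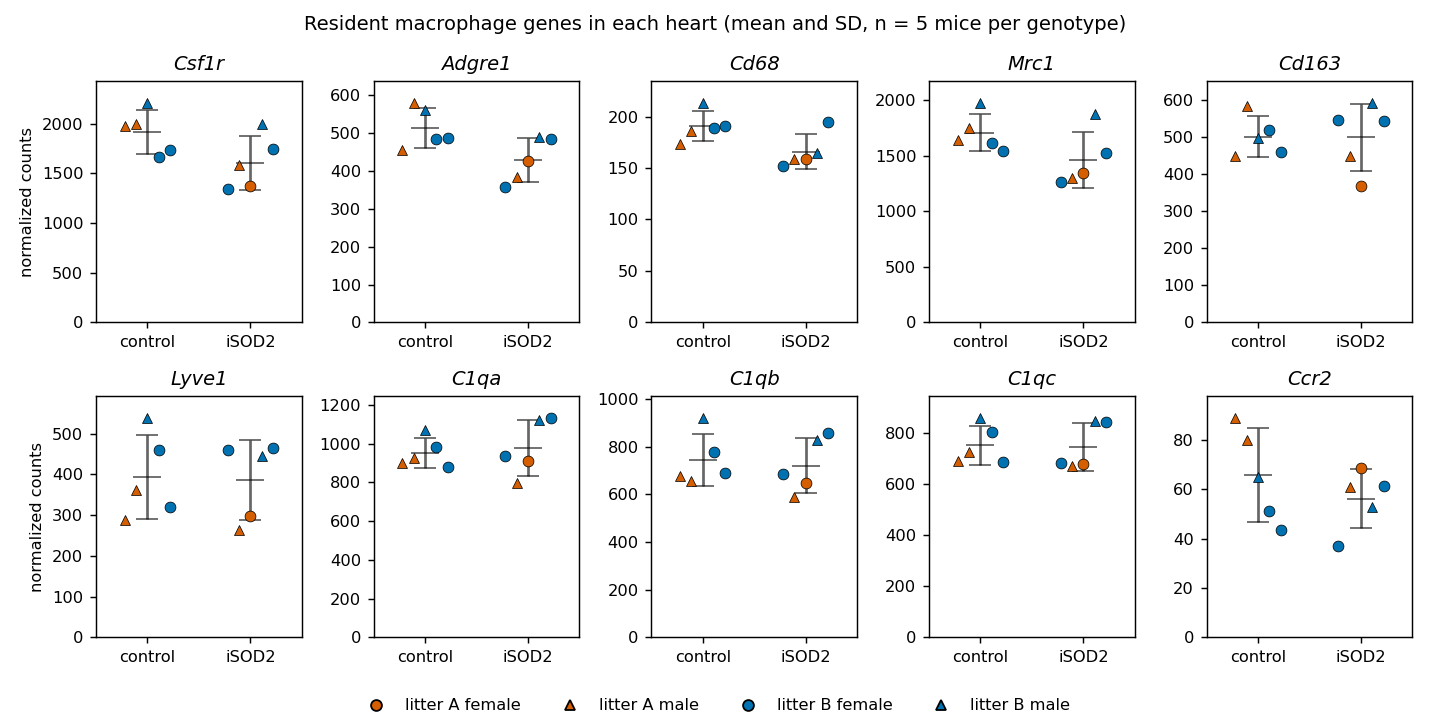
Normalized counts of each of the 10 genes (vertical axes from 0) in every control and iSOD2 heart, with litter as colour, sex as symbol, and the mean and SD of 5 mice as bars. Csf1r, Adgre1, Cd68 and Mrc1 were lower in most iSOD2 hearts with overlap, and Lyve1 and C1qb were lower in litter A than in most or all of litter B.

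C1q is built from the products of C1qa, C1qb and C1qc, each a collagen-like stalk joined to a globular head, and it binds immune complexes and dying cells. The 3 genes lie side by side on the minus strand of chromosome 4, C1qb (NM_009777) at 136880145 to 136886177, C1qc (NM_007574) at 136889802 to 136892914 and C1qa (NM_007572) at 136895916 to 136898844. The 250 bases before the start sites of C1qb and C1qc are shown because these genes varied together from mouse to mouse, as described further on. They are RefSeq sequences of build GRCm38.p6, read 5′ to 3′ on the minus strand, chr4:136886201-136886450 for C1qb, whose RefSeq start lies 23 bases before that of the count table, and chr4:136892915-136893164 for C1qc. Capitals mark GAGGAA, the core letters bound by PU.1, the master factor of macrophages, on either strand, and in C1qb also TGCTGA, a stretch of the MAF recognition element.
C1qb: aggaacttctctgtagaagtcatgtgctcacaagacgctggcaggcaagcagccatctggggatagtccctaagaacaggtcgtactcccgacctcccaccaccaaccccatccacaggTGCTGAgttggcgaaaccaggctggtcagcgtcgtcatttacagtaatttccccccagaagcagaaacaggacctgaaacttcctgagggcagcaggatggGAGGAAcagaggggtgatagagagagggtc
C1qc: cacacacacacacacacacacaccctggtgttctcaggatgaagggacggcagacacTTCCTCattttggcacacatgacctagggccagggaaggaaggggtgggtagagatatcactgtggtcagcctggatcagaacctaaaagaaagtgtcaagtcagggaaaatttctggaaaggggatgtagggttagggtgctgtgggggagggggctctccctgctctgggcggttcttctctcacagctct

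In C1qb, GAGGAA began 30 bases and TGCTGA 131 bases before the start, both on the strand of the gene, and in C1qc GAGGAA lay on the opposite strand 193 bases before the start. Windows of 300 bases, 250 before and 50 after the start, were held for 6 of the 10 genes, Cd68, Cd163, Mrc1, C1qb, C1qc and Ccr2. GAGGAA occurred in 4 of these 6 windows, those of Cd68, Mrc1, C1qb and C1qc, and in 28.3% of 32851 mouse windows of that length. TGCTGA occurred in 1 of the 6 and in 19.5% of all, and TGAGTCA, the AP-1 motif, in 1 of the 6 and in 5.20% of all. The latter was Cd68, with TGAGTCA 149 and 24 bases before its start. These are matches of letters on both strands, and none is a measured binding site.

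C1qa had 900, 926, 1070, 981 and 882 normalized counts in controls 1, 2, 3, 4 and 6, and 935, 795, 908, 1122 and 1134 in iSOD2 mice 5, 7, 8, 9 and 10. Both the lowest value and the highest 2 were iSOD2 mice. C1qb had 678, 655, 922, 778 and 691 in the control hearts and 686, 589, 647, 827 and 857 in the iSOD2 hearts, and C1qc 689, 723, 858, 802 and 686 and 681, 671, 677, 847 and 844. The genotypes overlapped over most of their range for all 3 chains, and the fitted differences were at or near 0: the log2 fold changes were 0.04 for C1qa (95% interval −0.15 to 0.24), −0.04 for C1qb (−0.28 to 0.19) and −0.01 for C1qc (−0.20 to 0.17), with DESeq2 adjusted p of 0.865, 0.878 and 0.962.

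Set against Adgre1, Csf1r and Mrc1 within each mouse, a contrast chosen after the values were seen and given with no test, the mean log2 level of the 3 C1q chains was −0.55 ± 0.14 in the control hearts and −0.31 ± 0.12 in the iSOD2 hearts (SD, n = 5 each), a difference of 0.24. The C1q transcripts are about a kilobase of exon, and those of Adgre1, Csf1r and Mrc1 are longer, at 3221, 3851 and 5286 bases. With the trend of each library with exon length removed, the difference was 0.09. After that removal the log2 fold changes were −0.24 for Adgre1, −0.22 for Csf1r, −0.16 for Mrc1 and −0.29 for Cd68, and −0.07, −0.16 and −0.13 for C1qa, C1qb and C1qc.

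Ccr2, the receptor for the monocyte attractant CCL2 (NM_009915, chromosome 9, 124102183 to 124109140, plus strand), was the scarcest of the 10, with 43 raw counts in the lowest library. It had 89.1, 80.0, 65.2, 51.4 and 43.5 normalized counts in the control hearts and 37.2, 61.1, 68.8, 52.8 and 61.3 in the iSOD2 hearts. The range of the controls took in 4 of the 5 iSOD2 mice. The log2 fold change came to −0.23 (SE 0.23, 95% interval −0.68 to 0.22, unadjusted p 0.321), with no adjusted p because its mean count fell under the limit that DESeq2 sets. The log2 ratio of Ccr2 to Adgre1, which sets a monocyte marker against a marker of macrophages at large, was −2.99 ± 0.42 in the control hearts and −2.93 ± 0.29 in the iSOD2 hearts (SD, n = 5 each, exact permutation p 0.810).

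No member's genotypes were free of overlap, against 3.77% of the 17728 genes tested. The genotype calls of Csf1r and Mrc1 turned on the mice used. Litter A held controls 1 and 2 and iSOD2 7 and 8, of which only iSOD2 8 was female, and iSOD2 9 was male. Genotype was thus not balanced over sex within litter A alone or without iSOD2 9. iSOD2 9 held the highest Csf1r and Mrc1 of its genotype. Without it, Csf1r (−0.35, DESeq2 adjusted p 0.0234) and Mrc1 (−0.33, DESeq2 adjusted p 0.00699) were called, among 319 of 9416 genes with an adjusted p. Within litter A alone, 2 mice against 2, both were called too (−0.43, DESeq2 adjusted p 0.00808, and −0.36, DESeq2 adjusted p 0.0291), among 121 of 4376 genes. Of the members only Csf1r, Mrc1 and C1qa had an adjusted p there. Within litter B alone Csf1r and Mrc1 were not called (−0.14 and −0.14). Whether the difference between genotypes itself differed between litters was tested for all 10 genes, and none passed in a table where 0.00564% of genes did. The largest such term was that of Cd163 (0.53, SE 0.20, unadjusted p 0.00722, DESeq2 adjusted p 1), whose log2 fold change came to −0.34 in litter A and 0.19 in litter B. With the hepatocyte score as a covariate no member was called for genotype, and the log2 fold changes were −0.37 for Adgre1, −0.32 for Lyve1, −0.30 for Cd68, −0.28 for Mrc1, −0.25 for Csf1r and −0.19 for C1qb. The value of Lyve1 moved most, from −0.03 (DESeq2 adjusted p 0.426 with the covariate).

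**Figure D2:**
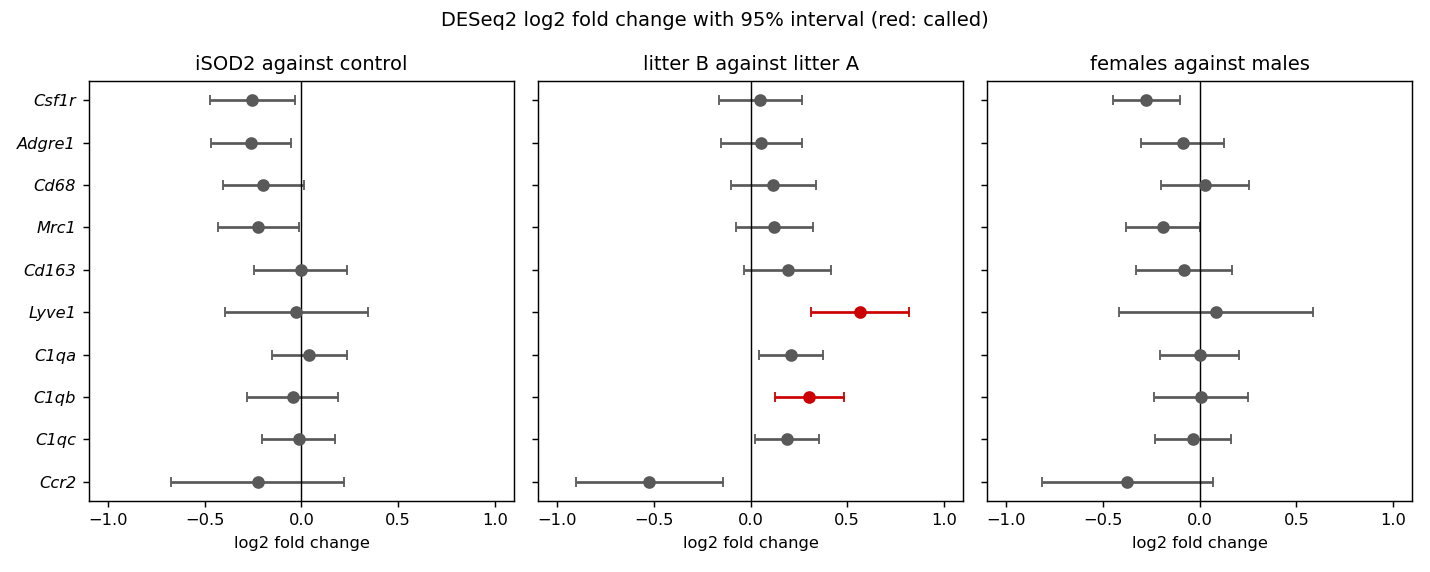
DESeq2 log2 fold changes with 95% intervals of the 10 genes for genotype, litter and sex, on a common horizontal axis, with called genes in red. No gene was called for genotype or sex, and Lyve1 (0.57) and C1qb (0.30) were called between litters.

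Genes that work beside the 10 were read from lists typed from general knowledge. DESeq2 gives no adjusted p to genes of low mean count, and such genes could not be called whatever their change, so the number that had one is given with each list. Of 21 further markers of resident macrophages, 12 with an adjusted p, 0 were called higher and 1 lower in iSOD2 hearts, 11 had fitted levels above and 10 below controls, and their median log2 fold change came to 0.00. The called gene was Cx3cr1, the fractalkine receptor of resident macrophages and of patrolling monocytes. Its normalized counts were 247, 260, 310, 162.5 and 230 in the control hearts and 89.1, 176, 141, 162.4 and 101 in the iSOD2 hearts. Only control 4 lay within the range of the iSOD2 mice, whose mean of 134 ± 37.8 stood against 242 ± 53.6 in controls (SD, n = 5 each, exact permutation p 0.0159). The log2 fold change came to −0.85 (SE 0.20, DESeq2 adjusted p 0.00174), and Cx3cr1 was called in 15 of 24 alternatives, with log2 fold changes from −0.99 to −0.68. It missed the call under edgeR (adjusted p 0.0786) and with the hepatocyte covariate (−0.80, adjusted p 0.0511). Timd4 and Folr2, which with Lyve1 mark the long-lived macrophage subset, had log2 fold changes of 0.12 and 0.10, and Mertk, a receptor for dying cells, 0.00. Selenop, a selenium carrier, had 0.21 (DESeq2 adjusted p 0.0109), under the fold threshold.

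The growth factors and transcription factors of macrophages lay mostly lower. Of 15 such genes past the filter, 7 of them with an adjusted p, 12 had lower and 3 higher fitted levels, with a median log2 fold change of −0.18. Csf1, a ligand of Csf1r, had 2447, 2492, 2141, 1806 and 1299 normalized counts in the control hearts and 1438, 1598, 1533, 1658 and 1747 in the iSOD2 hearts. The controls spread widely, from below every iSOD2 mouse to above every one. Controls 1, 2 and 3, the highest, were male, and controls 4 and 6 female. Females against males had −0.33 (DESeq2 adjusted p 0.285). The interactions of genotype with sex and with litter were 0.55 and 0.54 (unadjusted DESeq2 p 0.00308 and 0.00859), and neither passed adjustment. For genotype the log2 fold change of Csf1 came to −0.35 (SE 0.14, DESeq2 adjusted p 0.110). Il34, the other ligand, had 0.09. Tgfb1, which keeps tissue macrophages in their resident state, had −0.30 (DESeq2 adjusted p 0.134), and the transcription factors Maf and Spi1 had −0.25 and −0.20. The 1 gene called was Cebpb, a transcription factor of myeloid cells that many other cells also use, at 0.63 (SE 0.18, DESeq2 adjusted p 0.0171), which was called in 12 of 24 alternatives. It missed the call under edgeR (adjusted p 0.134) and with the hepatocyte covariate (0.53, DESeq2 adjusted p 0.209). In litter A alone and in males alone Cebpb had no adjusted p and could not be called.

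Of 16 genes shared by leukocytes, 12 had lower fitted levels, 0 of the 9 with an adjusted p were called and the median log2 fold change came to −0.17. Ptprc, the common leukocyte antigen CD45, had −0.26 (DESeq2 adjusted p 0.196), Itgam −0.18 and Cd14 −0.34, whereas Lyz2, the lysozyme of macrophages and neutrophils, had 0.00. Among 13 genes of monocytes and their recruitment 8 had lower fitted levels, 4 of them at an unadjusted p under 0.05, which 5.93% of all genes reached in that direction. Only 2 of the 13 had an adjusted p and could be called, and neither was. Ccl2, the ligand of Ccr2, had −0.33, Ccl7, another of its ligands, 0.26, and Cx3cl1, the ligand of Cx3cr1, −0.29, all without an adjusted p at these counts. Plac8, a monocyte gene, had 10.5 ± 3.65 normalized counts in the control hearts and 4.05 ± 1.25 in the iSOD2 hearts (SD, n = 5 each), with no overlap and no adjusted p. Of 18 inflammatory and alternative activation genes past the filter 12 had higher and 6 lower fitted levels. Most were scarce, and 1 of the 18 had an adjusted p, so that the list could hardly give a call and gave none. Their sum ran from 493 to 732 normalized counts in the iSOD2 hearts and from 498 to 614 in controls.

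The partners of C1q in complement moved in both directions. Of 18 genes, 12 with an adjusted p, 1 was called higher and 2 lower, where 2.96% of all genes were called. An unadjusted p under 0.05 was reached by 7 that were higher and 2 that were lower. Of all genes 13.2% reached it in either direction and 5.93% with lower levels. C1ra, the protease that C1q activates first, had 255, 269, 288, 295.3 and 239 normalized counts in the control hearts and 357, 299.9, 350.5, 338 and 294.6 in the iSOD2 hearts. Only iSOD2 10 lay within the controls, by less than 1 count, and the log2 fold change came to 0.29 (SE 0.09, DESeq2 adjusted p 0.0398). C1s1, the protease that C1r activates, had 0.15 (DESeq2 adjusted p 0.218) and C3, the component on which the pathways converge, 0.44 (DESeq2 adjusted p 0.162). C3ar1, the receptor for the C3a fragment on macrophages, had 257, 302, 276.5, 233 and 281 in the control hearts and 185, 186, 235.0, 234.8 and 215 in the iSOD2 hearts. Control 4 lay below iSOD2 8 and 9, every other control lay above every iSOD2 mouse, and the log2 fold change came to −0.35 (SE 0.11, DESeq2 adjusted p 0.0257). Lrp1, a large endocytic receptor of many cell types that takes part in the uptake of C1q-coated cells, had 9051 to 12102 in the control hearts and 7062 to 8705 in the iSOD2 hearts, without overlap (−0.43, SE 0.08, DESeq2 adjusted p 0.000132). C1ra and C3ar1 were each called in 8 of 24 alternatives and Lrp1 in 22. In litter A alone and in males alone C1ra and C3ar1 had no adjusted p and could not be called. Hepatocytes make C3, C1r, C1s and other soluble components, and the hepatocyte sums moved with genotype as given above. With the hepatocyte covariate C1ra was at 0.24 (DESeq2 adjusted p 0.339), C3ar1 at −0.39 (DESeq2 adjusted p 0.118) and Lrp1 at −0.39 (DESeq2 adjusted p 0.0224). The part of liver RNA in these differences was not tested otherwise.

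**Figure D3:**
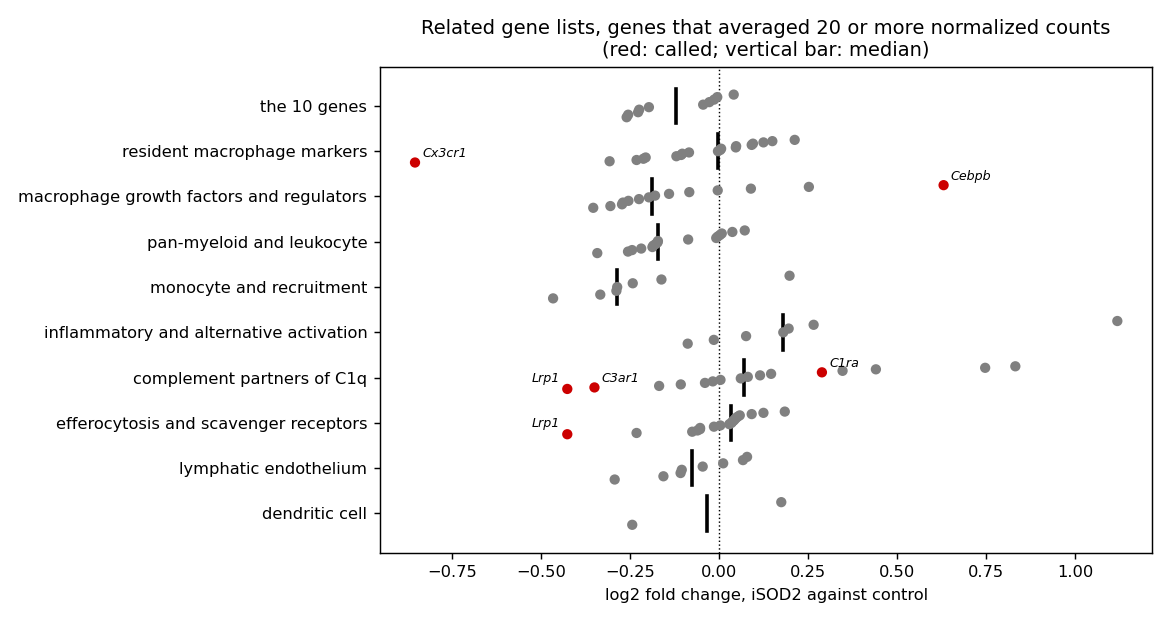
DESeq2 log2 fold changes of iSOD2 against control (horizontal axis) for genes that averaged 20 or more normalized counts in each related list, with called genes in red and the median of the plotted genes as a bar. Cx3cr1 (−0.85), Lrp1 (−0.43) and C3ar1 (−0.35) were called lower and Cebpb (0.63) and C1ra (0.29) higher, while none of the 10 genes was called.

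Of the lists for other cells, 20 genes for uptake of dying cells and scavenging had a median of 0.04 with 1 of the 12 that had an adjusted p called lower, again Lrp1. Of 8 lymphatic endothelial genes, 7 with an adjusted p, 0 were called: Flt4 had −0.10, Pdpn 0.01 and Prox1, which cardiomyocytes also express, −0.29 (DESeq2 adjusted p 0.106). None was called for genotype of 8 blood endothelial genes, all with an adjusted p, of 6 cardiomyocyte genes, all with one, or of 6 fibroblast genes, 5 with one. An adjusted p was given to 2 of 7 dendritic cell genes and 1 of 5 mast cell genes, none of them called, and to 0 of 10 T and B lymphocyte, 8 neutrophil, 5 Kupffer cell and 5 liver sinusoidal genes past the filter, so that these last 4 lists could give no call. All 5 Kupffer cell genes, of which Timd4 and Vsig4 also stood among the resident macrophage markers, had higher fitted levels. Their sums were 60.6 to 134 normalized counts in the iSOD2 hearts and 54.3 to 87.8 in controls. Their part in the levels of the 10 genes was not tested. All 10 hepatocyte genes had higher fitted levels and 1 of them, Apoa2, was called (0.85, DESeq2 adjusted p 0.00246, and edgeR adjusted p 0.0890).

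The litters were compared because litter was on the labels and both genotypes came from both. Litter and sex were not balanced: in litter A only iSOD2 8 was female, and in litter B only control 3 and iSOD2 9 were male. Lyve1 and C1qb were called higher in litter B, 2 of the 10 genes where 3.5% of 15654 genes were called, 2.52% of them higher. The direction was widely shared. In all, 9 of the 10 genes had higher fitted levels in litter B, where 49.1% of all genes did, and Ccr2 alone had a lower one. An unadjusted p under 0.05 was reached by 4 higher genes, Lyve1 and the 3 C1q chains, and by Ccr2, which was lower, against 13% of all genes, 7.46% higher and 5.5% lower.

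Lyve1 had 289, 363, 265 and 297 normalized counts in the litter A mice, controls 1 and 2 and iSOD2 7 and 8, and 539, 460, 320, 459.8, 446 and 465 in the litter B mice, controls 3, 4 and 6 and iSOD2 5, 9 and 10. Control 6 lay within litter A and the other 5 litter B mice above it. The means were 303 ± 42.0 (SD, n = 4) and 448 ± 71.2 (SD, n = 6), and the log2 fold change with genotype as covariate was 0.57 (SE 0.13, 95% interval 0.31 to 0.82, DESeq2 adjusted p 0.000933). Each genotype showed it, with means of 326 and 440 in the control hearts and 281 and 457 in the iSOD2 hearts. Lyve1 was called in 17 of 18 alternatives, the exception being the hepatocyte covariate (0.47, DESeq2 adjusted p 0.195).

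C1qb did not overlap between litters, with 589 to 678 normalized counts in litter A and 686 to 922 in litter B, as 4.03% of all genes tested did not. The log2 fold change came to 0.30 (SE 0.09, 95% interval 0.13 to 0.48, DESeq2 adjusted p 0.0259). C1qa (0.21, SE 0.08, DESeq2 adjusted p 0.162) and C1qc (0.19, SE 0.08, DESeq2 adjusted p 0.246) lay in the same direction and were not called. The call of C1qb was less steady than that of Lyve1. It was kept without control 4, control 6, iSOD2 5 or iSOD2 8 and lost without any other mouse (adjusted p 0.0738 to 0.172), under edgeR (0.0828) and with the hepatocyte covariate (0.28, adjusted p 0.477).

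Ccr2 went the other way, with 89.1, 80.0, 61.1 and 68.8 normalized counts in litter A and 65.2, 51.4, 43.5, 37.2, 52.8 and 61.3 in litter B. Control 3 and iSOD2 10 were the litter B mice that reached into litter A. The log2 fold change came to −0.53 (SE 0.19, 95% interval −0.91 to −0.14, DESeq2 adjusted p 0.108), which missed the call. The log2 ratio of Ccr2 to Adgre1 ran from −2.84 to −2.34 in litter A and from −3.46 to −2.97 in litter B, without overlap, a difference of −0.58. The exact permutation p of 0.00952 is the smallest that 210 arrangements of 4 mice against 6 can give, for a contrast seen before it was tested. Csf1r, Adgre1, Cd68 and Mrc1 differed little between litters, with log2 fold changes of 0.05, 0.05, 0.12 and 0.12, and Cd163 had 0.19.

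Other genes and cell types moved with litter too. Mertk rose by 0.44 (SE 0.09, DESeq2 adjusted p 6.38e-05), with 252 to 294 normalized counts in litter A and 345 to 389 in litter B, the 1 called of the 21 further macrophage markers, of which 16 had higher fitted levels in litter B. Mertk was called in 17 of 18 alternatives and lost with the hepatocyte covariate (0.40, DESeq2 adjusted p 0.0963). Of the lymphatic endothelial list, which bears on Lyve1, 7 of 8 genes were higher and Nrp2 was called (0.47, DESeq2 adjusted p 2.76e-09), with sums of 7896 to 9415 in litter B and 7548 to 8674 in litter A. Flt4 and Pdpn had 0.11 and 0.36 and were not called. Blood endothelial markers summed to 21086 to 24236 in litter B and 19558 to 21494 in litter A, with Cdh5 called (0.32). Cardiomyocyte markers took 6.69% to 7.24% of the normalized counts in litter B and 7.39% to 7.82% in litter A, without overlap. Hepatocyte sums were 6053 to 21634 in litter B and 239 to 13807 in litter A. Of 5 liver sinusoidal genes 3 had higher and 2 lower fitted levels in litter B, and 0 were called. Their sums were 132 to 189 in litter B and 128 to 164 in litter A. Neutrophil markers summed to 33.4 to 73.6 in litter B and 85.5 to 87.7 in litter A, with Csf3r called lower (−0.79), and mast cell markers to 290 to 372 and 226 to 252, with Kit called higher (0.48). The complement gene Cd93 was called higher (0.35), and Scarb1 (0.35) and Col3a1 (0.32) were called higher in the scavenger and fibroblast lists. With the hepatocyte covariate Nrp2 and Cdh5 were still called for litter, and Csf3r, Kit, Cd93, Scarb1 and Col3a1 were not (DESeq2 adjusted p 0.139 to 0.533). The part of these cells in the litter difference of Lyve1 and C1qb was not tested beyond the hepatocyte covariate, and litter cannot be told apart from anything else that the litters did not share.

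**Figure D4:**
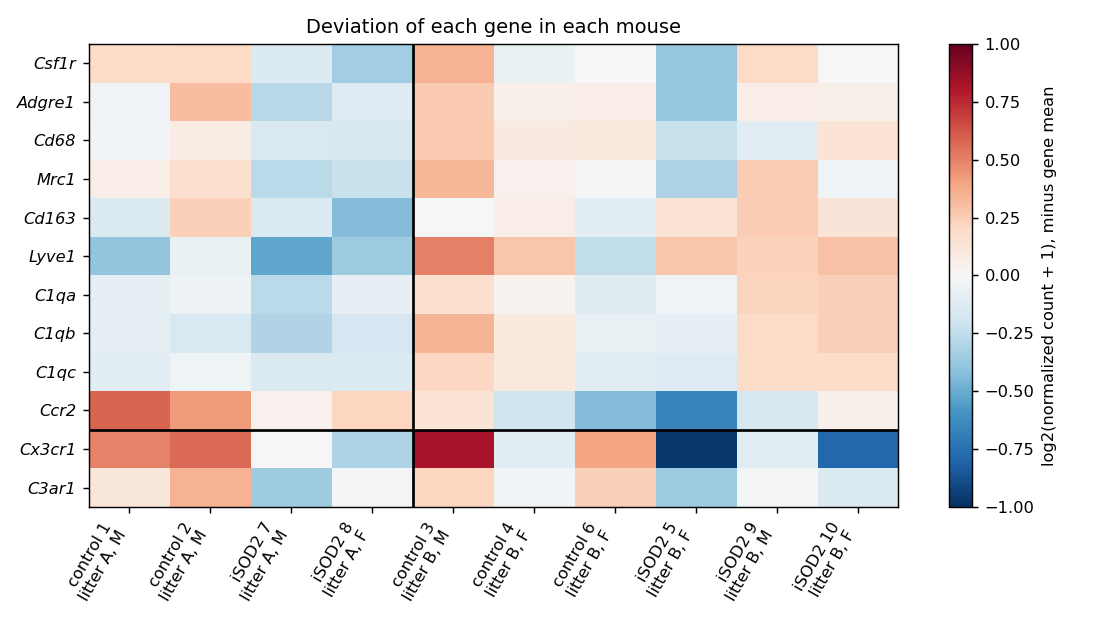
Deviation of log2(normalized count + 1) from each gene's mean over 10 mice, for the 10 genes and for Cx3cr1 and C3ar1 beneath the line, with litter A left and litter B right of the vertical line. Lyve1 and the C1q chains were below their mean in litter A and above it in most of litter B, Ccr2 above its mean in litter A, and iSOD2 5 lay low in Csf1r, Adgre1, Mrc1 and Ccr2.

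Between sexes no member was called, where 0.483% of 16348 genes were. Csf1r came nearest, with 1341, 1369, 1662, 1735 and 1742 normalized counts in the 5 females and 1585, 1980, 1996, 2001 and 2209 in the 5 males. Only the male iSOD2 7 lay within the females (means 1570 ± 199 and 1954 ± 227, SD, n = 5 each, exact permutation p 0.0317). With genotype as covariate the log2 fold change of females against males was −0.28 (SE 0.09, unadjusted p 0.00173, DESeq2 adjusted p 0.155). It was called with litter as a further covariate (−0.35, DESeq2 adjusted p 0.00545) and without iSOD2 10 (−0.34, DESeq2 adjusted p 0.00747). Mrc1 had −0.19 (unadjusted p 0.0502), and 7 of the 10 genes had lower fitted levels in females, as 49% of all genes did, with a median log2 fold change of −0.06 over the 10 and 0.00 over all genes. Of the related genes Cx3cr1 (−0.54) and Ace (−0.44) were called lower and Lum (0.42) higher in females. The call of Cx3cr1 lay at the threshold (DESeq2 adjusted p 0.04999) and was kept in 2 of 18 alternatives, with adjusted p up to 0.544 and log2 fold changes from −0.68 to −0.46. Since the iSOD2 mice held 3 females and the controls 2, sex and genotype were not balanced. With sex and litter as covariates no member was called for genotype. The log2 fold changes were then −0.19 for Csf1r, −0.17 for Mrc1, −0.23 for Adgre1 and −0.19 for Cd68. Cd68 and Ccr2 had no adjusted p in that fit and could not be called. No member was called for the interaction of genotype and sex, and 0% of 17725 genes were.

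The levels of the 10 genes were also compared from mouse to mouse, to ask how far they varied together. Over the 45 pairs of genes Pearson's r of log2(normalized count + 1) had a median of 0.52 and ran from −0.36 to 0.94, with 41 pairs positive. Permutation p of r, adjusted over the 45 pairs, was at most 0.05 for 10 pairs, and for 8 of these the p of Spearman's rho was too. Every pair shares its 10 libraries, and the spread includes the differences between litters and genotypes. Centred by genotype the median r was 0.57, and centred by litter 0.66.

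Closest were the C1q chains, at r 0.94 (rho 0.88) for C1qb with C1qc, 0.92 (0.81) for C1qa with C1qb and 0.91 (0.82) for C1qa with C1qc, with adjusted permutation p of 0.0027, 0.00304 and 0.0027 for r. Without the 2 mice farthest from the median of the first gene these were 0.89, 0.93 and 0.85. Csf1r, Adgre1 and Mrc1 formed another close set, at r 0.93 (rho 0.93) for Csf1r with Mrc1, 0.88 (0.85) for Adgre1 with Mrc1 and 0.82 (0.89) for Adgre1 with Csf1r, and 0.86, 0.74 and 0.73 without 2 mice. Their adjusted permutation p were 0.0027, 0.00891 and 0.0210. Within litter B alone, 6 mice, these 6 pairs kept r of 0.86 to 0.97. Between the C1q chains and Csf1r, Adgre1 and Mrc1, r ran from 0.42 to 0.71. With the exon length trend removed it ran from 0.70 to 0.91 between them. Among Csf1r, Adgre1 and Mrc1 it was then 0.81 to 0.91, and among the C1q chains 0.93 to 0.95. The separation of the sets was thus smaller without that trend. Cd68 went with Adgre1 (r 0.83, rho 0.70, adjusted permutation p 0.0178 for r and 0.0945 for rho, 0.68 without 2 mice).

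Lyve1 went with the C1q chains, at r 0.83 (rho 0.87), 0.86 (0.87) and 0.81 (0.77) with C1qa, C1qb and C1qc, and less with Csf1r (0.27) and Adgre1 (0.35). Adjusted permutation p with the chains were 0.0178, 0.0151 and 0.0488 for r and 0.0213, 0.0213 and 0.0535 for rho. Without 2 mice r was 0.73, 0.82 and 0.76. Centred by litter, Lyve1 with the C1q chains was at 0.67, 0.66 and 0.66, values that were not tested. Ccr2 had r of −0.36 to 0.48 with the other 9 genes and none passed. Centred by litter its median r with them was 0.77, and within litter B it was 0.96 with C1qb and 0.84 with Adgre1, values chosen after they were seen. The difference between the sets of pairs was not tested.

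**Figure D5:**
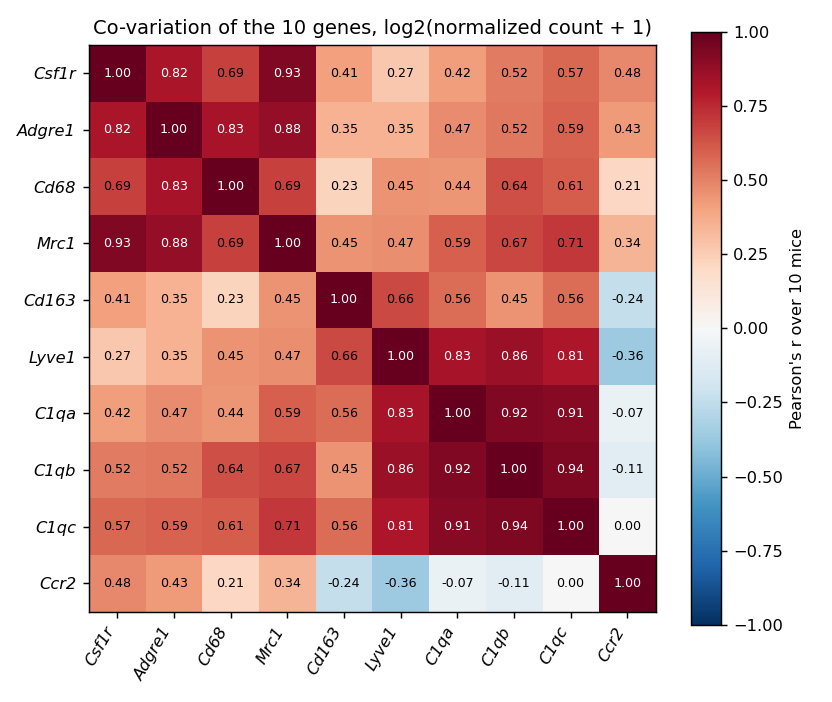
Pearson's r between log2(normalized count + 1) of the 10 genes over 10 mice, written in each cell and coloured from −1 to 1. The C1q chains with Lyve1 (0.81 to 0.94) and Csf1r, Adgre1 and Mrc1 (0.82 to 0.93) formed the closest blocks, and Ccr2 lay apart (−0.36 to 0.48). The exon length trend was not removed from these values.

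Among 12019 genes outside the lists that averaged 50 or more normalized counts, those that followed the mean standardized level of the 10 genes most closely over the 10 mice were Tnfrsf1b (r 0.95, rho 0.94), Tuba4a (0.95, 0.93), Abca9 (0.95, 0.94), Arf4 (0.94, 0.94) and Mms22l (0.93, 0.92). Tnfrsf1b encodes a receptor for tumour necrosis factor that leukocytes carry, Tuba4a an alpha-tubulin, Abca9 a transporter of the ATP-binding cassette family, Arf4 a small GTPase of vesicle traffic and Mms22l a factor of DNA repair. They are the top of a ranking over many genes and few mice, so the values have no test. None of the 5 was called for genotype, with log2 fold changes from −0.29 for Mms22l to −0.06 for Tuba4a. Mms22l had no adjusted p and could not be called.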

How the data were processed

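Total RNA of heart tissue was depleted of ribosomal RNA and sequenced as stranded libraries. After adapter trimming with Trim Galore, the authors mapped reads to mm10 with STAR, and HOMER added up those on exons for 1 transcript of every gene. The deposited table holds these estimated counts, which come in steps of 0.5 and were not normalized by the authors, together with another quantity, the exon length in base pairs, and mm10 coordinates. The counting command stated no strand option. No gene of the table overlaps a member on the opposite strand, and Mir6983 and Mir511, which lie within Csf1r and Mrc1 on the same strand, had mean normalized counts of 0.737 and 1.40.

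Counts were rounded. A gene needed 10 counts or more over all 10 libraries, which 17728 had. DESeq2 1.42.0 (Wald test, median-of-ratios factors, default independent filtering, unshrunken fold changes) in R 4.3.3 was fitted to the whole table for genotype without covariates, for litter and sex with genotype as covariate, and for the interactions, with Benjamini-Hochberg adjustment over all genes. Normalized counts are counts divided by these factors. For single values, two-sided exact permutation tests were run in scipy 1.17.1, over 252 arrangements of 5 mice against 5, whose smallest p is 0.00794. Correlations used 100000 permutations and a pseudocount of 1. The hepatocyte score is the mean z score of log2 levels over 10 markers. The length trend was removed per library by lowess (span 0.3) over genes that averaged 50 or more normalized counts. The fits were tested on simulated counts with planted changes.

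Precision was set by the spread between mice, which includes counting error. Groups came from the sample labels. The members and the related lists were chosen with earlier results of these data known. Genes named are the 10 members, a set of related genes chosen by name (ligands, receptors, regulators and markers), any list gene called for genotype, litter or sex, up to 2 genes per list with the lowest genotype p, and the 5 most alike in level.

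Alternatives were the quasi-likelihood test of edgeR 4.0.16, scaling by TMM or the upper quartile, other filters and no fold threshold, covariates, each litter or sex alone, removal of the length trend, and leaving out each mouse in turn. The length trend and hepatocyte covariate for litter and sex were added after seeing the data. Sequences are from RefSeq tables of GRCm38.p6, which is mm10. Values of some members of the related lists are not reported here.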

Additional observations from a re-analysis of the deposited data

How the results depend on the processing

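No paired analysis was possible because control and iSOD2 mice share no replicate number. Litter served as a covariate instead and left 0 members called for genotype. The genotype count of called members was 0 in 23 alternatives, and 2 (Csf1r and Mrc1) within litter A alone and without iSOD2 replicate 9. Leaving out each mouse thus gave 0 to 2. A member without an adjusted p could not be called in these counts. Within litter A alone only Csf1r, Mrc1 and C1qa had one, and in males alone only these with C1qb and C1qc. With sex and litter as covariates Cd68 and Ccr2 had none. The litter count of 2 was 1 under edgeR, 0 with the hepatocyte covariate, and 1 to 2 when each mouse was left out. Without control 2 the pair was Cd163 and Lyve1. The sex count of 0 was 1 with litter as a further covariate and 0 to 1 when each mouse was left out. Both interaction counts stayed 0 under edgeR. The cause of these changes was not tested.

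The direction of Cd68, Adgre1, Csf1r and Mrc1 for genotype was negative in all 24 alternatives. The genes near 0 changed sign. Cd163 was at 0.000887 with upper-quartile scaling, 0.011 with sex, 0.017 with sex and litter, 0.047 with the length trend removed, 0.19 in litter B and 0.033 in males. Leaving out each mouse gave −0.074 to 0.088 for Cd163, −0.12 to 0.11 for Lyve1, −0.017 to 0.11 for C1qa, −0.11 to 0.042 for C1qb and −0.065 to 0.036 for C1qc. Lyve1 was at 0.057 in litter B and 0.059 in females. C1qa was at −0.059 with the hepatocyte covariate, −0.069 with the length trend removed, −0.098 in litter A and −0.0091 in males. C1qc was at 0.010 with sex and litter, 0.015 in litter B and 0.0068 in males. Ccr2 was at 0.026 with the hepatocyte covariate and 0.23 in females. For litter, Adgre1 was at −0.062 with the hepatocyte covariate, and leaving out each mouse gave −0.023 to 0.10 for Csf1r. With 5 mice a side, the 95% interval of the genotype difference was −0.20 to 0.17 for C1qc and −0.68 to 0.22 for Ccr2. True differences of either sign within such bounds remained possible.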
